A study of Mus musculus with 40 samples.

Results

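The aryl hydrocarbon receptor (Ah receptor) and the cytochrome P450 genes it controls were followed in liver and kidney of mice given phenobarbital (PB), an anticonvulsant that raises many hepatic enzymes by way of a different receptor, the constitutive androstane receptor (CAR). The 7 genes were taken by symbol from the probe annotation of the array: Ahr, Arnt, Ahrr, Tiparp, Cyp1a1, Cyp1a2 and Cyp1b1. They are measured by 16 of the 45037 probe sets, in a set of 18193 named genes. For 28 days PB-treated mice drank freely of water that held 0.05% (w/v) PB, while control mice were given no PB. All 20 animals were male B6C3F1/Crl mice, the cross of a C57BL/6 and a C3H/He parent, aged 29 to 32 days when obtained and kept for 5 days before treatment. Each of the 4 groups (PB liver, control liver, PB kidney, control kidney) holds 10 animals with 1 array each, and the liver and kidney with the same number came from the same animal. Values are MAS5 signals, a linear brightness of each probe set, and the authors had brought every array to a common trimmed mean of 150.

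The Ah receptor is a ligand-activated transcription factor that waits in the cytoplasm in a complex with the chaperone HSP90. After binding a ligand such as dioxin or a dietary indole, it enters the nucleus, pairs with ARNT and binds DNA at a short response element. CYP1A1, CYP1A2 and CYP1B1, which oxidize polycyclic aromatic compounds, are its best known targets, and AHRR and TIPARP are induced targets that dampen the receptor in turn. CYP1A2 is an abundant enzyme of hepatocytes also without an inducer, whereas CYP1A1 is low until the receptor is activated.

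In liver, Ahr and Cyp1a2 rose with PB and no other gene of the group rose, while 1 of 3 tested Arnt probe sets fell. Ahr was 2.19-fold and Cyp1a2 1.92-fold higher in PB livers than in control livers. Cyp1a1 stood close to the lowest level that was tested in both groups, and the interval of its difference reached from a fall to a rise. In kidney no probe set of the group passed the test. Tests were limited to probe sets that reached a mean signal of 50 with PB or without it in that tissue. A call means a Benjamini-Hochberg adjusted p below 0.05 from limma, a linear model fitted over all probe sets. By this rule 9 of the 16 probe sets (5 genes) were tested in liver and 8 (4 genes) in kidney, and 5 probe sets were tested in neither. In liver 2 were called higher and 1 lower of 9, where 12.3% of all 18981 tested probe sets were called (5.88% higher and 6.43% lower). At the study's thresholds, a ratio of means of 1.5 and a p of 0.001, Ahr and Cyp1a2 passed, 2 of 9 beside 2.40% of all. The median log2 fold change of the 9 was -0.12, beside -0.01 over all tested probe sets.

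Arrays of the 4 groups had a like brightness, with median signals of 33.6 to 37.2 in PB livers, 32.9 to 37 in control livers, 30 to 34.1 in PB kidneys and 31.4 to 34.9 in control kidneys. Cyp2b10, the CAR target that PB is known to induce, had a mean signal of 11482 ± 1067 in PB livers and 25.4 ± 9.84 in control livers (SD, n = 10 each), at least 229.6-fold higher when the control mean is set to 50. In kidney its means were 32.6 in PB animals and 44.5 in controls, both under 50. Alb and Apoa1 of hepatocytes and Umod and Slc34a1 of kidney tubules were high in the tissue named by the labels. The highest Umod signal in any liver was 122.9, in a control, while the lowest in control kidneys was 9637.

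The promoters of 3 targets are shown, Cyp1a2 as the target that was called in liver and Cyp1a1 and Tiparp as targets that were not. The receptor with ARNT reads the core letters GCGTG, or CACGC on the other strand, and TATAAA is the TATA box that places the start of transcription. Sequences are those of RefSeq on GRCm38.p6, from 250 bases before to 50 after the start, 5′ to 3′ on the strand of the gene, with both motifs in capitals. The start is that of the promoter table, which for Cyp1a1 lies inside the span given for the gene below, downstream of the first base of that span.
Cyp1a2 (chr9:57683606-57683905, minus strand): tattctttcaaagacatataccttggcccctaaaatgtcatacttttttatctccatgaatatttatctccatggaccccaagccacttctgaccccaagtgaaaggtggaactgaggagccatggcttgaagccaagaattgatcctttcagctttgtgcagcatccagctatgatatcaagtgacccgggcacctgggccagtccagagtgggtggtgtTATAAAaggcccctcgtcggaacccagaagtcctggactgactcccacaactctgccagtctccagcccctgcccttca
Cyp1a1 (chr9:57697363-57697662, plus strand): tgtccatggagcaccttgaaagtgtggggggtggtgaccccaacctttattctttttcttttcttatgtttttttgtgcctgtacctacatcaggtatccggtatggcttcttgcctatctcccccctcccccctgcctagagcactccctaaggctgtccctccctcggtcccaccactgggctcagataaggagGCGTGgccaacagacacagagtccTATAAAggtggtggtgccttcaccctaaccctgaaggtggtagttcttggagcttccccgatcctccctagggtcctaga
Tiparp (chr3:65528197-65528496, plus strand): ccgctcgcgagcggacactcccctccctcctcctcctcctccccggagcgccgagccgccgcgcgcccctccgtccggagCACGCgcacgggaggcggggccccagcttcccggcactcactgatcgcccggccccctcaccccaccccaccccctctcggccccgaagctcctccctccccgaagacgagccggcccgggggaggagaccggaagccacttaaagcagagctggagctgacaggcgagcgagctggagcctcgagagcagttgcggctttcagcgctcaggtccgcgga
Cyp1a1 and Cyp1a2 are neighbours on chromosome 9 that are read in opposite directions. In these windows Cyp1a1 has 1 core, beginning at position -54 from the start, and a TATA box at -30. Cyp1a2 has a TATA box at -29 and no core. Tiparp has 1 core, on the opposite strand at -170, and no TATA box. In the same window Ahrr has 3 cores (-107, -82 and -27), Arnt has 1 (-29) and Cyp1b1 has 1 on the opposite strand (-76). The core is common, since 32.4% of 32851 promoters hold it on either strand, and 13.6% hold TATAAA. The match is of letters and does not show binding. Bases outside these windows were not searched, so a gene without a core here may hold one farther away.

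Ahr (chr12:35497979-35534989 in GRCm38.p6), the receptor itself, had signals of 776.3 to 1352 (median 1065) in PB livers and 256.9 to 663.5 (median 516) in control livers at its brighter probe set, 1422631_at. Every PB liver thus lay above every control liver, a separation that 1.36% of all tested probe sets showed in either direction. The mean was 1058 ± 189 in PB livers and 493 ± 122 in control livers (SD, n = 10 each). The difference was 1.13 on the log2 scale (SE 0.14, limma adjusted p = 4.78e-06), a 2.19-fold rise with a 95% interval of 1.79 to 2.67. It ranked 124th by p among 18981 probe sets. The lowest control was animal 6 at 256.9, and with any 1 array left out the log2 difference lay between 1.03 and 1.18. In whole tissue a change in RNA per cell and a change in the share of a cell type cannot be told apart.

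The second Ahr probe set, 1450695_at, gave weak signals of 31.0 to 69.5 in PB livers and 5.1 to 39.6 in control livers. Its means of 47.3 in PB livers and 24.5 in control livers are both under 50, so it was not among the tested probe sets. Fitted without the signal minimum, it was also higher in PB livers, by 1.04 on the log2 scale (SE 0.27, limma adjusted p = 0.0264). Of the 10 PB livers, 7 lay above the highest control.

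Arnt (chr3:95434367-95497240), the partner that the Ah receptor shares with the hypoxia factors, gave no single answer over its 5 probe sets. At 1419996_s_at the signal was 30.4 to 121 (median 87.9) in PB livers and 83.4 to 180 (median 129) in control livers. The groups overlapped, with 4 PB livers under the lowest control. The mean was 85.2 ± 31.6 in PB livers and 132 ± 31.0 in control livers (SD, n = 10 each), and the fall was 0.71 on the log2 scale (-0.71, SE 0.22, limma adjusted p = 0.0366). The low values of animals 16 (30.4) and 12 (37.2) stood out in the PB livers. The call was lost in 8 of 20 fits that left out 1 array and in a fit without the signal minimum (adjusted p = 0.0655).

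The brightest Arnt probe set, 1437042_at, averaged 144 ± 32.5 in PB livers and 151 ± 31.6 in control livers, a log2 difference of -0.07 (95% interval -0.35 to 0.21, limma adjusted p = 0.791). At 1421721_a_at the means were 54.1 ± 6.23 in PB livers and 59.8 ± 12.6 in control livers, a log2 difference of -0.12 (95% interval -0.39 to 0.14, limma adjusted p = 0.584). The last 2, 1425064_at and 1449696_at, had means under 50 in all 4 groups and were not tested. The interval of the brightest probe set does not reach the -0.71 of 1419996_s_at, although both intervals overlap, and the difference between the probe sets was not tested. Identifiers ending in _s_at mark probe sets that can also detect other transcripts.

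Of the receptor's repressors, Ahrr was too dim to be tested in either tissue and Tiparp was not called. Ahrr (chr13:74211118-74292331), which competes with the Ah receptor for ARNT, had a mean of 4.31 in PB livers and 3.9 in control livers, and 2.66 in PB kidneys and 7.61 in control kidneys. The highest of its 40 values was 20.6, in a PB liver, so that no array came near 50. Tiparp (chr3:65528447-65555518), a mono-ADP-ribosyltransferase that marks the Ah receptor for breakdown, was measured by 3 probe sets. At the brightest, 1426721_s_at, signals were 80.5 to 199 (median 145) in PB livers and 122 to 298.9 (median 156) in control livers. PB livers were lower at all 3, with log2 differences of -0.29, -0.25 and -0.20, and the groups overlapped. The limma adjusted p-values were 0.293, 0.349 and 0.363. The 95% interval at 1426721_s_at was -0.64 to 0.07, which leaves out a rise of the size seen for Ahr or Cyp1a2.

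Cyp1a2 (chr9:57676937-57683655), the constitutive liver P450 that clears caffeine, was bright in every liver. Its signals were 9165 to 12342 (median 10195) in PB livers and 4058 to 6352 (median 5461) in control livers, and the groups did not overlap. The mean was 10389 ± 930.3 in PB livers and 5440 ± 623 in control livers (SD, n = 10 each), hence the 1.92-fold rise (95% interval 1.74 to 2.11) and a log2 difference of 0.94 (SE 0.07, limma adjusted p = 3.29e-10). By p it ranked 40th of 18981. The largest control signal was 6352, in animal 10, and the smallest PB signal was 9165, in animal 12. The call was lost when all 40 arrays shared 1 estimate of spread, at the same log2 difference (limma adjusted p = 0.0822). That estimate takes in the kidney signals of 1.1 to 38.7, all under 50.

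Cyp1a1 (chr9:57687928-57703824), its neighbour and the most inducible target of the Ah receptor, showed no such difference. Its signals were 10.8 to 87.5 (median 57.1) in PB livers and 20.1 to 66.3 (median 52.5) in control livers, with 6 of 10 livers over 50 in each group. The log2 difference was -0.06 (SE 0.30, 95% interval -0.67 to 0.55, limma adjusted p = 0.918), and the ratio of arithmetic means was 1.04. This interval lies below the rise of Cyp1a2, and it leaves room for smaller changes in either direction. Cyp1b1 (chr17:79706940-79715061), the member of the family known from tissues other than hepatocytes, had liver means of 16.6 in PB animals and 28.6 in controls at 1416612_at. Its other probe sets were lower still, and none was tested in liver.

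**Figure D1:**
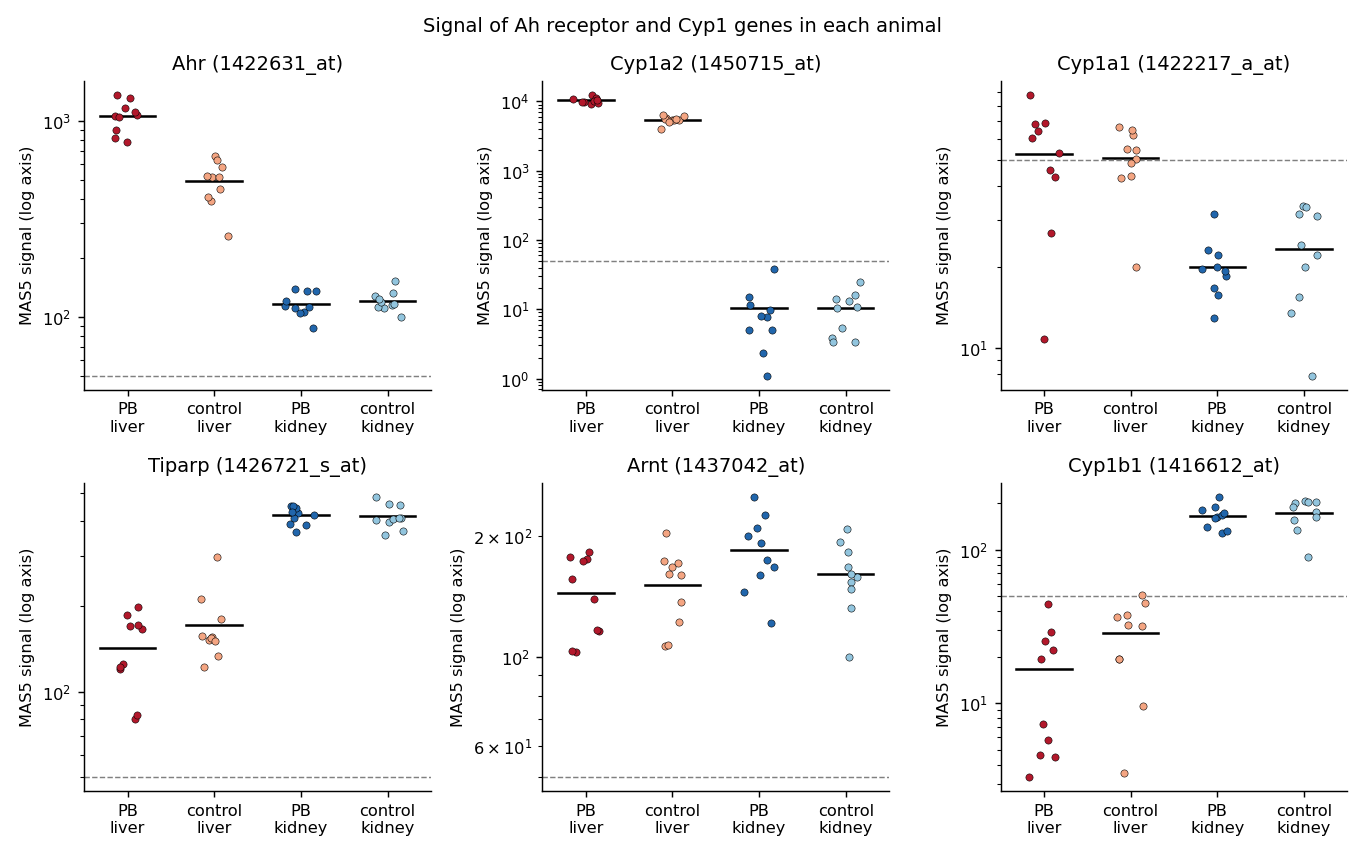
MAS5 signal (log axis) of the brightest probe set of each of 6 genes in PB liver, control liver, PB kidney and control kidney. Each point is an animal (10 per group), bars are arithmetic means, and the dashed line is the signal of 50 used as the minimum for a test. All 10 PB livers lie above all 10 control livers for Ahr and Cyp1a2, and PB and control animals of a tissue overlap in the other panels.

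**Figure D2:**
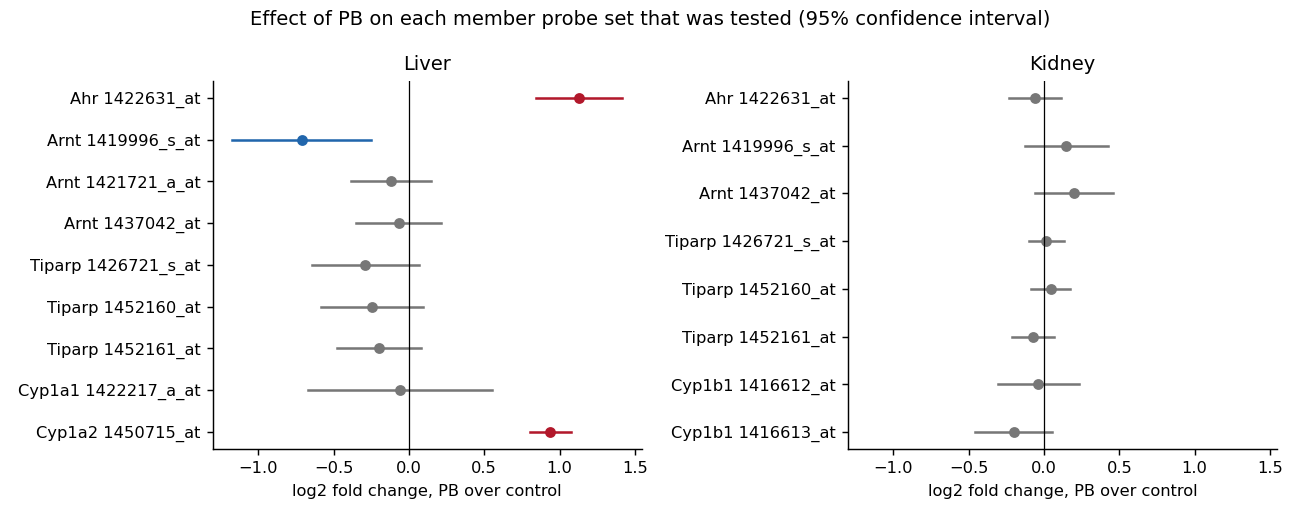
Log2 fold change, PB over control, of the 9 probe sets tested in liver and the 8 tested in kidney, with 95% confidence intervals. Red and blue mark probe sets called higher and lower. In liver Ahr (1.13) and Cyp1a2 (0.94) are called higher and Arnt 1419996_s_at (-0.71) lower, and in kidney no probe set is called.

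In kidney, the tissue the study used as non-target, 0 of 8 probe sets were called, where 3.26% of 19229 were called in all (1.79% higher and 1.47% lower). At the study's thresholds 0 of 8 passed, beside 0.504% of all, and at none were the groups free of overlap, beside 0.161% of all. None had an unadjusted p under 0.05 in limma either. The methods' t-test on single probe sets was run in place of limma and also called none of the 8. Ahr averaged 116 ± 16.3 in PB kidneys and 121 ± 14.4 in control kidneys (SD, n = 10 each), a log2 difference of -0.06 (95% interval -0.23 to 0.12, limma adjusted p = 0.773). Tiparp averaged 417 ± 29.7 in PB kidneys and 414 ± 40.6 in control kidneys at 1426721_s_at, with a log2 difference of 0.01. At Cyp1b1 1416612_at the mean was 166 ± 28.3 in PB kidneys and 173 ± 37.9 in control kidneys, a log2 difference of -0.04 (95% interval -0.31 to 0.23). Arnt 1437042_at was 185 ± 38.9 in PB kidneys and 160.4 ± 31.0 in control kidneys, a log2 difference of 0.20 (limma adjusted p = 0.419). Cyp1a2 averaged 10.4 in PB kidneys and 10.6 in control kidneys and Cyp1a1 20.0 in PB kidneys and 23.3 in control kidneys, all under the minimum for a test.

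The PB effect in liver was set against that in kidney in 1 fit of all 40 arrays. For Ahr the effect was larger in liver by 1.19 on the log2 scale (SE 0.17, limma adjusted p = 4.18e-06). For Arnt 1419996_s_at it was lower in liver by 0.86 (-0.86, SE 0.27, limma adjusted p = 0.0490), which lies next to the threshold. These were 2 of 11 probe sets called, where 6.21% of 21866 were called in all (3.13% higher and 3.08% lower). Cyp1a2 entered this fit through its liver signals alone. Its kidney signals lay between 1.1 and 38.7, under the minimum for a test, so a PB effect in kidney and its difference from that in liver could not be measured. Cyp1a1 and Arnt 1421721_a_at also reached a mean of 50 in liver alone, and Cyp1b1 1416612_at and 1416613_at in kidney alone. For these too the means of 1 tissue lay under the minimum, and the 11 probe sets include them.

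The genes also differed between the tissues without PB. The share called was high for all genes, with 79.2% of 21866 probe sets in PB mice (34.8% higher and 44.4% lower in liver) and 78.1% in control mice (35.2% higher and 42.9% lower), so that the calls say little and the sizes are given. Of the 11 tested, 10 differed in PB mice (3 higher and 7 lower in liver) and 9 in control mice (4 higher and 5 lower). Among the 11, Cyp1a1, Cyp1a2 and Arnt 1421721_a_at reached a mean of 50 in liver alone, and Cyp1b1 1416612_at and 1416613_at in kidney alone. The minimum itself favoured a difference between tissues for these, so their calls are not support for one. Both tissues came from the same animals, and with the animal as a fixed block 11 in PB mice and 10 in control mice differed, the additions being Arnt 1421721_a_at in PB mice (adjusted p = 0.0250) and Arnt 1419996_s_at in control mice (adjusted p = 0.0268). Ahr was 9.05-fold higher in liver than in kidney in PB mice and 3.98-fold higher in control mice (log2 3.18 and 1.99). Every liver lay above every kidney in both, but the share of all probe sets that separate the tissues in this way was not counted. The lowest liver signal of Ahr was 256.9 while the highest kidney signal was 152.8, both in controls. Cyp1a2 was at least 207.8-fold higher in liver than in kidney in PB mice and at least 108.8-fold in control mice, with the kidney mean set to 50. For Cyp1a1 the same bound was only 1.06-fold in PB mice and 1.02-fold in control mice, since its liver means were themselves close to 50.

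Tiparp and Cyp1b1 ran the other way. At all 3 Tiparp probe sets every liver lay below every kidney, a separation whose share over all probe sets was likewise not counted. The log2 differences, liver minus kidney, were -1.61 to -2.27 in PB mice and -1.31 to -1.98 in control mice. Cyp1b1 was at least 3.31-fold lower in liver in PB mice and at least 3.45-fold lower in control mice at 1416612_at, with the liver mean set to 50. At 1416613_at the bounds were 1.42 in PB mice and 1.63 in control mice. The Arnt probe sets differed less and not in 1 direction. At 1437042_at the log2 difference was -0.36 in PB mice (limma adjusted p = 0.0160) and -0.09 in control mice (limma adjusted p = 0.542). At 1419996_s_at it was -0.45 in PB mice (limma adjusted p = 0.0311) and 0.41 in control mice (limma adjusted p = 0.0517). At 1421721_a_at it was 0.24 in PB mice (limma adjusted p = 0.0585) and 0.27 in control mice (limma adjusted p = 0.0317). Kidney means of that probe set were 46.2 in PB mice and 48.8 in control mice, both under 50. With the kidney mean set to 50, it was at least 1.08-fold higher in liver in PB mice and at least 1.20-fold in control mice. The order of the 4 groups for Ahr was PB liver, control liver, then both kidney groups, which did not differ beyond their spread. For Tiparp it was both kidney groups, then both liver groups, neither pair differing beyond its spread.

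**Figure D3:**
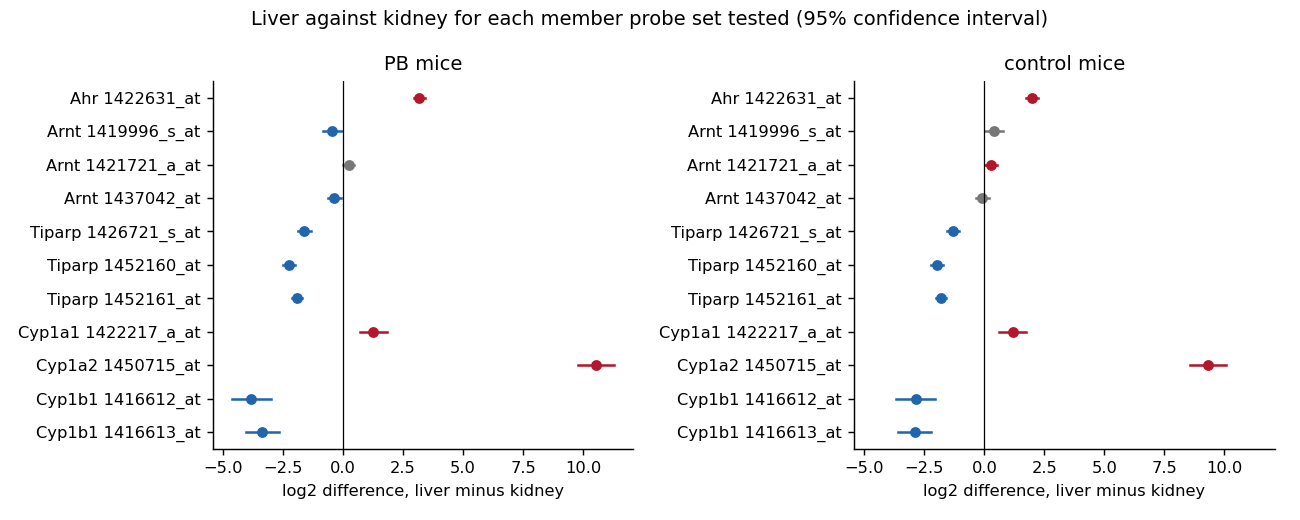
Log2 difference, liver minus kidney, of the 11 probe sets tested, in PB mice and in control mice, with 95% confidence intervals. Red and blue mark probe sets called higher and lower in liver. Ahr lies at 3.18 in PB mice and 1.99 in control mice, while Tiparp and Cyp1b1 lie below 0 in both. For Arnt 1421721_a_at, Cyp1a1, Cyp1a2 and Cyp1b1 1 tissue is under 50, so their plotted sizes depend on signals near background.

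Other genes known as Ah receptor targets were counted from a list. Of 13 listed genes 8 had a probe set of their own and the others were not analysed here. In liver 2 of 5 tested rose and 0 fell, beside 5.88% higher and 6.43% lower over all probe sets, and the median log2 fold change was 0.23, beside -0.01 over all. Nqo1, a quinone reductase that is also a target of the stress factor NRF2, averaged 102 ± 17.7 in PB livers and 67.2 ± 9.66 in control livers, a log2 difference of 0.60 (limma adjusted p = 0.000671), with 9 of 10 PB livers above the highest control. Xdh, the purine-degrading xanthine dehydrogenase, averaged 737 ± 61.4 in PB livers and 632 ± 82.6 in control livers, a log2 difference of 0.23 (limma adjusted p = 0.0362). Nfe2l2, which encodes NRF2, had a log2 difference of 0.29 (limma adjusted p = 0.0969). Aldh3a1, a target that responds to strong Ah receptor ligands, had means of 15.6 in PB livers and 12.2 in control livers and was not tested. In kidney 0 of 7 were called, beside 3.26% over all probe sets, so that 0 calls here say little. Selenbp1 was the brightest there, with 4020 ± 313.3 in PB kidneys and 3903 ± 387 in control kidneys.

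Hsp90aa1, the 1 chaperone gene measured of the receptor's complex, averaged 7036 ± 1109 in PB livers and 8336 ± 1241 in control livers (log2 difference -0.25, limma adjusted p = 0.0778). Of the genes that pair with ARNT or are related to it, 0 of 4 tested in liver and 0 of 6 tested in kidney were called. Over all probe sets 12.3% were called in liver and 3.26% in kidney, so that 0 calls among so few genes say little. Epas1, the hypoxia factor HIF-2α, averaged 1652 ± 202 in PB livers and 1987 ± 350 in control livers (limma adjusted p = 0.0603). In kidney it averaged 1591 ± 154 in PB animals and 1457 ± 62.5 in controls (limma adjusted p = 0.196), and the PB effect differed between the tissues by -0.38 (limma adjusted p = 0.0212).

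Of the genes that supply P450 enzymes with electrons or heme, 3 of 11 rose and 0 fell in liver, beside 5.88% higher and 6.43% lower over all probe sets. Alas1, which catalyses the first and limiting step of heme formation, ranged from 1284 to 9358 in PB livers and 419 to 6661 in control livers, a log2 difference of 1.51 (SE 0.46, limma adjusted p = 0.0325) with wide overlap. Cyb5a, the electron donor cytochrome b5, ranged from 15821 to 18026 in PB livers and 11997 to 15252 in control livers, with no overlap and a log2 difference of 0.34 (limma adjusted p = 7.71e-06). Alad, the next enzyme of heme synthesis, differed by 0.21 (limma adjusted p = 0.0236). In kidney 1 of 11 rose, beside 1.79% over all, Cyb5b of the outer mitochondrial membrane, by 0.16 (limma adjusted p = 0.0362).

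**Figure D4:**
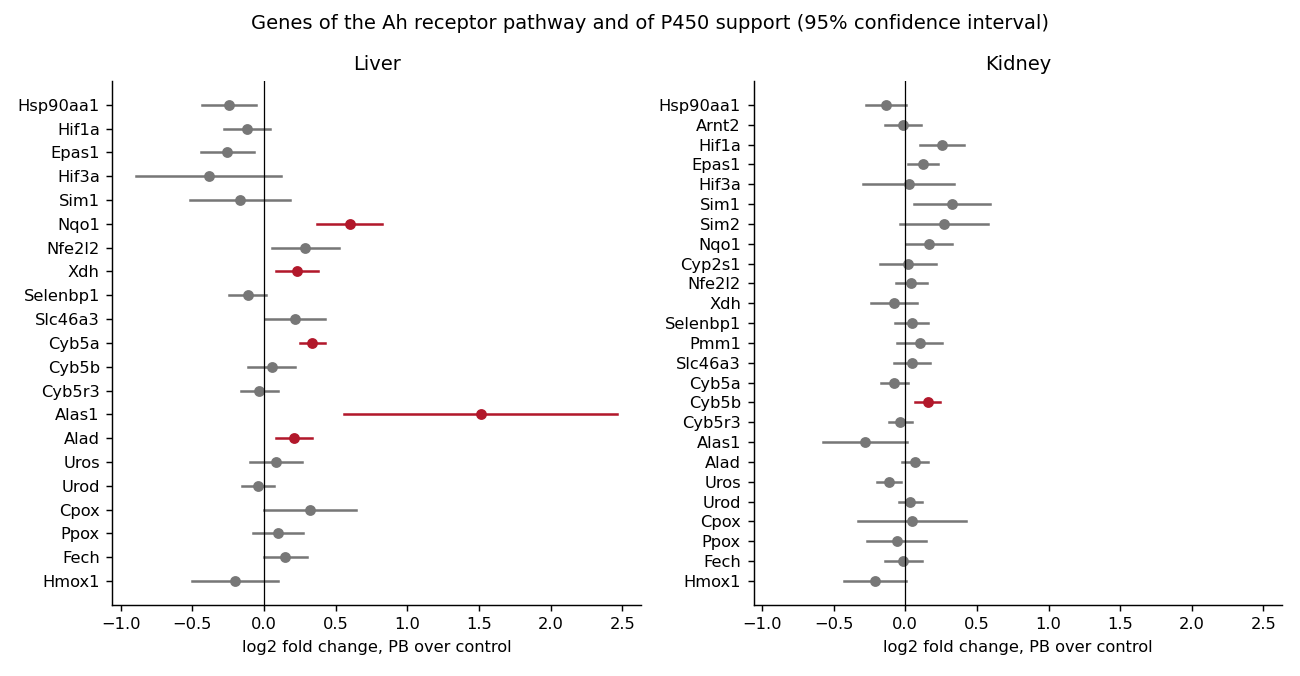
Log2 fold change, PB over control, with 95% confidence intervals, of the tested genes of the chaperone, ARNT partner, Ah receptor target and P450 support lists in liver and kidney. Red marks genes called higher. In liver Nqo1 (0.60), Xdh (0.23), Cyb5a (0.34), Alas1 (1.51) and Alad (0.21) are called higher, and in kidney Cyb5b (0.16).

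Clock genes, whose CLOCK and BMAL1 proteins belong to the same family as the Ah receptor and ARNT, were called in part in both tissues. In liver 4 rose and 2 fell of 12 and the other 6 did not pass, where 12.3% of all probe sets were called. The 2 that fell were Arntl, which encodes BMAL1 (log2 difference -0.75, limma adjusted p = 0.00084), and Clock (-0.26, limma adjusted p = 0.0472). In kidney 5 rose and 2 fell of 13, where 3.26% of all were called. Dbp, a clock output gene, averaged 853 ± 818 in PB livers and 161 ± 134 in control livers (log2 difference 2.32, limma adjusted p = 0.00355). In kidney Dbp averaged 1014 ± 354 in PB animals and 428 ± 223 in controls (log2 difference 1.35, limma adjusted p = 0.00948). Per2, a repressor in the clock, rose by 0.94 in liver and 0.84 in kidney, Tef rose by 0.86 in liver, and Npas2 fell by 0.91 in kidney. The hour at which each animal was killed is not given in the sources used here, and the part of the clock genes in the differences of Ahr and Cyp1a2 was not tested.

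Cell type markers were counted beside the 12.3% called over all probe sets in liver. Of the hepatocyte markers 0 of 4 were called, and their summed signals were 60522 to 90756 in PB livers and 62803 to 90087 in control livers. Of 9 markers of pericentral hepatocytes, the zone where Cyp1a2 is highest, 1 rose: Rhbg, an ammonium transporter, by 0.58 (limma adjusted p = 0.000288). The summed signals of that list were 37420.1 to 49246 in PB livers and 32813 to 45422 in control livers. Of 5 periportal markers 0 were called, with sums of 27557 to 39009 in PB livers and 29176 to 41459.8 in control livers.

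Of the stellate cell and fibroblast markers 0 rose and 3 of 8 fell, beside 6.43% lower over all probe sets. These were Des, Pdgfrb and Dcn, lower by 1.14, 0.32 and 0.31 on the log2 scale (limma adjusted p = 0.0404, 0.0427 and 0.00398). The summed signals of the whole list were 2773 to 3798 in PB livers and 3320.5 to 4100.1 in control livers. Of the endothelial markers 1 of 6 fell, Stab2, a scavenger receptor of sinusoids, with 358.8 to 445.0 in PB livers and 455 to 621 in control livers (log2 difference -0.38, limma adjusted p = 0.000331). The sums of that list were 1462 to 2002 in PB livers and 1477 to 2018 in control livers. No macrophage marker of 5 was called, with sums of 1456 to 3141 in PB livers and 1837 to 3146 in control livers. Of the lymphocyte markers 1 was tested, and it was not called. In kidney 2 of 9 stellate cell and fibroblast markers rose, beside 1.79% over all, Lum by 0.66 and Rgs5 by 0.28. The part of these cell types in the differences of Ahr and Cyp1a2 was not tested.

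Ahr and Cyp1a2 rose in the same livers, but no relation between them within a group passed the adjusted test. Within PB livers the log2 signals of both correlated with r = 0.53 and rho = 0.71 (n = 10, permutation p = 0.111 and 0.0266, two-sided, adjusted p = 0.443 and 0.253), and r was 0.38 without the 2 livers farthest from the median of Ahr. Within control livers r was -0.33 and rho -0.30 (n = 10, permutation p = 0.317 and 0.411, adjusted p = 0.864 and 0.874), and r was -0.54 without the 2 farthest. Over 32 such relations between the tested genes in the 4 groups, none passed after Benjamini-Hochberg adjustment. The strongest was between Tiparp and Cyp1a2 in PB livers, with r = -0.79 and rho = -0.81 (n = 10, permutation p = 0.00539 and 0.0069, adjusted p = 0.172 and 0.166) and r = -0.53 without the 2 farthest.

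**Figure D5:**
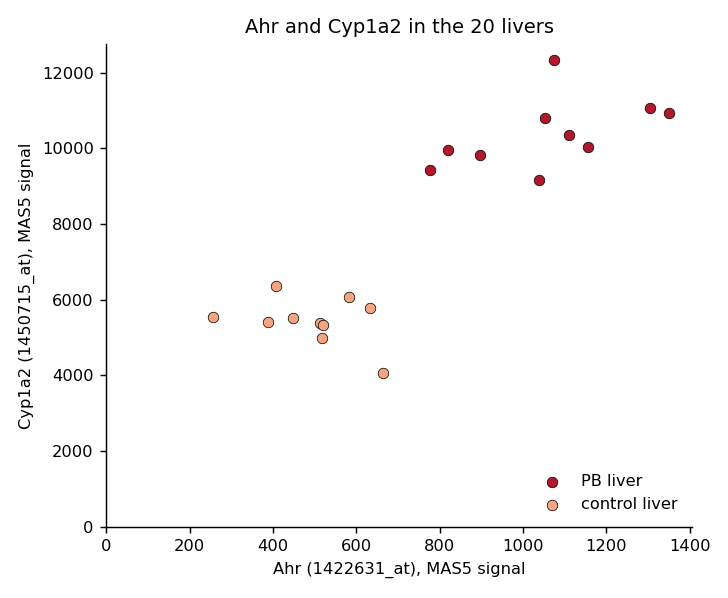
MAS5 signal of Cyp1a2 against that of Ahr in the 20 livers (both axes linear), 1 point per animal. The 10 PB livers (Ahr 776.3 to 1352, Cyp1a2 9165 to 12342) form a cloud apart from the 10 control livers (Ahr 256.9 to 663.5, Cyp1a2 4058 to 6352), so that no correlation over all 20 is given.

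The genes whose log2 signals followed each member most closely from liver to liver were found after the group means were subtracted, among 16630 named probe sets for Ahr and Cyp1a2 and 16628 for Arnt. For Ahr these were Lysmd3 (r = 0.83), Rrp1 (r = 0.80) and Ibtk (r = 0.79), over 20 livers. For Cyp1a2 they were Ndufv2 (r = 0.82), Mmut (r = 0.82) and Aspdh (r = 0.81). For Arnt, at its brightest probe set, they were Phf8 (r = 0.90), Gtpbp4 (r = 0.87) and Mak16 (r = 0.87). All of these values share the arrays and their scaling, and they are the highest of a long search. Of the 9 genes only Aspdh was called between PB and control livers (log2 difference -0.16, limma adjusted p = 0.0490), and it ran against Cyp1a2.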

How the data were processed

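Total RNA of frozen liver and kidney of each animal was hybridised to Affymetrix Mouse430_2 arrays. The deposited intensity values are MAS5 signals on a linear scale, with every array brought by the authors to a common trimmed mean of 150. GCOS and MAS5 are the tools named in the submitters' processing notes. Detection calls and the promoter methylation arrays were not used here. Probe sets were named from the platform annotation, updated through RefSeq (GRCm38.p6): 34945 had 1 symbol, 932 several and 9160 none. An old synonym, AHRR, of Cyp1a1 was not taken for Ahrr.

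Kept were probe sets that reached a mean of 50 in a group of the comparison, signals under 1 were set to 1, and log2 values were tested with limma 3.58.1 (lmFit, eBayes with trend, two-sided) in R 4.3.3, with Benjamini-Hochberg adjustment over all probe sets tested. Tissues were compared in a fit of all 40 arrays. Permutation tests used 100000 resamples (SciPy 1.17.1, Python 3.11.15). The tests of PB against control in each tissue and of the difference of the PB effect were tried on simulated data. The comparisons between tissues were not. The probe set with the highest mean stood for a gene of a list. Named were all 16 probe sets of the group, up to 3 called genes of each list with the largest change (otherwise its brightest gene), Cyp2b10, and 3 genes most like each called member. Some genes and lists are described beyond this rule by their counts or in single clauses (Nfe2l2, Aldh3a1, Arntl and Clock were chosen after their values were seen). The members and lists were chosen with earlier results of these data known. Of 20 animals, 10 livers correlated best with their own kidney (median r 0.0790 over 16344 probe sets, against -0.00943 between animals). The same donor number in the labels pairs the tissues. Animals are the replicates, and their number limits the precision.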

Additional observations from a re-analysis of the deposited data

Results flagged for a closer look

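The PB effect differed between liver and kidney for Ahr (liver minus kidney 1.19 on the log2 scale) and for Arnt 1419996_s_at (-0.86), each by the limma test of the difference itself.

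In 3 of 34 groups of 10 values, 1 animal stood far from the others, and chance alone gives about 1 in 20. In control livers animal 3 had a Tiparp signal of 298.9 at 1426721_s_at (next 212.9) and of 149.3 at 1452160_at (next 99.9). Cyp1a1 was 20.1 in the liver of control animal 1, where the next value was 43.1. Tiparp and Cyp1a1 were not called with or without these animals.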

How the results depend on the processing

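Ahr and Cyp1a2 kept their direction in liver under every alternative run, and Ahr its call, with a log2 difference of 1.03 to 1.18 when 1 array was left out. Cyp1a2 lost its call when all 40 arrays were fitted together (0.94, limma adjusted p = 0.0822), a fit whose spread takes in its kidney signals under 50. At the study's thresholds, a fold of 1.5 and a p of 0.001, 455 probe sets passed in liver and 97 in kidney, and the methods' t-test gave 401 and 72 there on log2 signals and 373 and 59 on linear signals, the methods not saying which was used. After Benjamini-Hochberg adjustment it gave 2214 and 450 on log2 and 2165 and 419 on linear signals. The kidney count, 627, was 335 without a signal minimum, 203 with all 40 arrays in 1 fit, and 393 to 852 when 1 array was left out (393 without control 8, 411 without PB 19). The liver count, 2336, was 1986 to 2541 when 1 array was left out. Without a minimum, 27191 probe sets differed between liver and kidney in PB mice (17315 with it) and 26004 in control mice (17067 with it). Of the group's probe sets 2 to 3 were called in liver and 0 in kidney when 1 array was left out. The difference of the PB effect was called for 1, not 2, of them without a minimum and with quantile normalization, which each lost Arnt 1419996_s_at (adjusted p = 0.0836 and 0.0662). That probe set also lost its call in liver without a minimum (0.0655), with Student's t on log2 signals (0.0670), at the study's p, and without control 1, 2, 6 or 8 or PB 12, 13, 16 or 20 (log2 -0.78 to -0.56 over all arrays left out).

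The sign turned only for differences that were not called. Cyp1a1 in liver was 0.11 with a floor of 50, 0.057 as a ratio of arithmetic means (Student's t on linear signals and the study's thresholds), and -0.20 to 0.17 when 1 array was left out (0.17 without PB 13 and 0.03 without PB 16). In kidney Cyp1b1 1416612_at was -0.14 to 0.0011 and Tiparp 1426721_s_at -0.0096 to 0.040 when 1 array was left out. With quantile normalization the difference of the PB effect was -0.0084 for Cyp1a1, and Arnt 1437042_at was higher in liver by 0.076 in control mice. With the animal as a block for the pairing of tissues, Arnt 1419996_s_at became called between tissues of control mice (0.41, adjusted p = 0.0268 with a fixed and 0.0445 with a random block, 0.0517 without) and Arnt 1421721_a_at between those of PB mice with a fixed block (0.24, adjusted p = 0.0250), and the block changed no other call. Calls of Arnt probe sets between tissues also changed with another minimum, an offset of 16, quantile normalization or median centring. The causes were not tested. Signals under 50 are near the background of the arrays. Differences of Cyp2b10, Cyp1a2, Cyp1a1 and Cyp1b1 against them are given as bounds. Other log2 differences that take in such signals, as for Des in liver and Arnt 1421721_a_at between tissues, depend on values near background.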
